A study of Drosophila melanogaster with 3 samples.

Results

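The regions described are the places on the right arm of chromosome 3 of Drosophila melanogaster, arm 3R, where the transcriptional coactivator Yorkie (Yki) was listed as bound in S2 cells. All intervals of the deposited peak list on 3R were taken, which gave 1008 of 3990 (25.3%). The samples were all from formaldehyde-fixed S2 cells: 2 ChIP libraries made with anti-Yki and 1 input library prepared with no antibody. S2 is an established line of embryonic origin, and the labels give no genotype, treatment or time beyond the line. The peak list and the density track each cover the libraries together, so no value below has a replicate error, no test between libraries was possible, and the depth of each library is unknown. Intervals given below cover counting error or the spread over peaks, not the spread between libraries.

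Yki acts at the end of the Hippo pathway, a kinase cascade that restrains the growth of tissues. When the kinases Hippo and Warts are active, Yki is phosphorylated and held in the cytoplasm; otherwise it enters the nucleus and raises the transcription of growth and survival genes. Yki does not bind DNA by itself and is brought to chromatin by partners such as Scalloped. No partner was measured here, so whether a partner or a complex holds Yki at each listed interval was not tested. Arm 3R runs from the centromere at low coordinates to the telomere at high coordinates and is known to carry both Hox gene complexes, the Enhancer of split complex and the insulin receptor gene. Positions refer to the build dm3. Neither genes nor bases of dm3 were looked up for them, so peaks are named by position, without a gene or a sequence.

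The density is the authors' smoothed score with background subtracted, given at 1 sample for each 100 bp; it falls below 0 where input exceeds ChIP. The height of a peak is the highest sample inside its interval. The authors do not state the scale. The most frequent short bump above 0 was read as 1 ChIP tag with a height of 1. On that reading a peak at the median height of 3R carries a counting SD of at least 9.79.

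Yki peaks on 3R were numerous, narrow and of very unequal height. There were 36.1 per Mb over 27.9 Mb (95% exact Poisson interval 33.9 to 38.4), against 39.0 on 2L (36.5 to 41.6), 35.1 on 3L (32.8 to 37.5) and 16.7 on X (15.1 to 18.5). These intervals treat peaks as independent and are too narrow for grouped peaks. Counts in 1 Mb windows of 3R varied more than Poisson counting gives (mean 36.4, SD 16.6). The 3R intervals covered 616 kb, or 2.21% of the arm, and held 32.5% of all density above 0. The median width was 449 bp (interval over peaks 427 to 485), with quartiles of 306 and 756 bp. The narrowest width, 200 bp, was shared by 20 peaks. On the reading of the scale above, 1 tag of height 1 sums to 4.98 over samples of 100 bp. How much of these widths comes from smoothing was not tested. Heights had a median of 136 (129 to 143) and quartiles of 99.7 and 241.5. The upper end was thin: 193 peaks (19.1%) reached 300, 81 (8.04%) reached 500 and 9 reached 1000. The same share at 300 was 15.1% on 2L, 19.0% on 3L and 13.9% on X, and the median height was 122 on 2L, 137 on 3L and 152 on X. The levels of 3R thus lay close to those of 3L on each of these measures, without a test of the differences.

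From the centromere to the telomere the number of peaks rose and fell several times. In the 27 complete windows of 1 Mb the mean was 36.4 peaks with an SD of 16.6 over windows, and the range ran from 6 to 74. The window from 5 to 6 Mb was the richest with 74 peaks, 22 of them at 300 or more, and the window from 10 to 11 Mb followed with 70. The other windows with at least 50 peaks were those from 4 to 5 Mb (50), 16 to 17 Mb (55), 17 to 18 Mb (57) and 25 to 26 Mb (55). These 6 windows held 361 peaks, or 35.8% of those on the arm. The poorest window, from 23 to 24 Mb, held 6 peaks, yet 4 of them reached 300 and their median height was 335. The first 3 Mb of the sequence, at its centromeric end, were below the mean, with 22, 24 and 21 peaks. The last, incomplete window at the telomere held 25 peaks, including the highest on the arm.

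**Figure D1:**
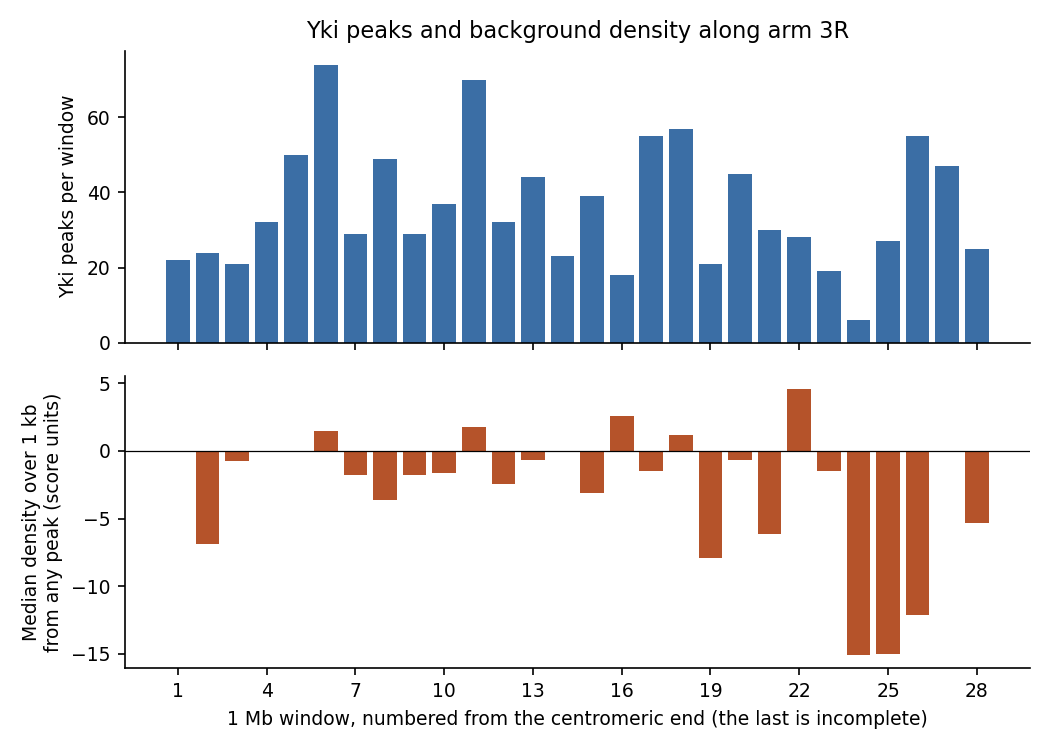
Upper bars give the number of Yki peaks in each 1 Mb window of 3R, numbered from the centromeric end, and lower bars the median density of samples over 1 kb from any peak. Window 6 (5 to 6 Mb) has the most peaks, 74, window 24 (23 to 24 Mb) the fewest, 6, and windows 24 to 26 have the lowest background, from -15.1 to -12.1.

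Number and height did not follow each other along the arm. Across the complete windows the number of peaks had a Spearman rho of -0.18 with the median height and 0.51 with the greatest height (27 windows, description only; a window with more peaks has more chances of a high one). The arm was also cut into 4 equal parts, which held 250, 283, 267 and 208 peaks from centromere to telomere. Median heights in these parts were 128, 133, 133 and 157, with intervals over peaks of 117 to 137, 119 to 147, 122 to 149 and 139 to 173. The telomeric part therefore had the fewest peaks and the highest median, and its interval overlapped those of the middle parts. Peaks of 500 or more were spread nearly evenly, with 21, 24, 18 and 18 in these parts. On the telomeric side of the arm's middle lay 475 peaks, or 47.1% (exact binomial interval 44.0% to 50.3%).

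The level between peaks also changed along the arm. The median density of samples over 1 kb from any peak was -1.81 on 3R, 0.70 on 2L and 0.33 on 3L, and 49.9% of all 3R samples lay below 0 against 41.2% on 2L, 42.4% on 3L and 44.4% on X. It was below 0 in 17 of the 27 complete windows. The lowest values were adjacent, at -15.1 from 23 to 24 Mb, -15.0 from 24 to 25 Mb and -12.1 from 25 to 26 Mb. The highest, 4.55, was that from 21 to 22 Mb, and the window between, from 22 to 23 Mb, had -1.48. The list has no values per library, so input and ChIP cannot be told apart as its source. Because heights are read from 0, a peak in the low stretch starts from a lower level than one elsewhere. Measured as the mean inside a peak less the mean of its own flanks, the median difference was 241 for the 6 peaks from 23 to 24 Mb, 164 for the 27 peaks from 24 to 25 Mb and 114 for the 55 peaks from 25 to 26 Mb, against 110.2 over the arm.

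The highest peak of 3R lay near the telomere. It spanned 27538595 to 27539999, reached 3052, held a single maximum and had flanking means of -14.0 on the centromeric side and -2.06 on the telomeric side, both measured 2 to 5 kb from its edges. It belonged to a group of 5, and its nearest neighbour, at 27541071 to 27541666 with a height of 151, lay 1071 bp away, nearer than the stretch used as flank. Its counting SD is at least 46.5. The second, at 25597239 to 25602239, reached 2333 and was of another shape: it was the widest peak of the arm at 5001 bp, held 4 maxima, and had a flank of 343 on the centromeric side and -9.31 on the telomeric side. The third, at 16607524 to 16609053, reached 1839.7, and the fifth, at 16603915 to 16604913, reached 1242. These 2 lay 2610 bp apart, so each sat in the flank of the other.

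The remaining peaks among the 10 highest were between 981 and 1635 bp wide and had 1 maximum each. The peak at 5052112 to 5053746 reached 1503, and that at 5376315 to 5377417 reached 1131 with no other peak within 15.5 kb. Both belong to the richest window of the arm. The peak at 26275486 to 26276466 reached 1106, the one at 17867242 to 17868810 reached 1100.01 and the one at 25607813 to 25609251 reached 1089. The tenth, at 7712629 to 7713640, reached 963 with 67.3 kb to its nearest neighbour. High peaks thus occurred both alone and in company: of the 10, 2 were single, and 2 belonged to the largest group of the arm.

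Broad peaks made up a minority of the list and a larger part of the covered length. There were 158 peaks of 1 kb or more (15.7%, exact binomial interval 13.5% to 18.1%), against 13.2% on 2L, 12.3% on 3L and 8.27% on X, and they covered 37.4% of the listed length on 3R. Their median height was 353, against 121 for the 850 narrower peaks. The lowest broad peak reached 110.3. Of the broad peaks, 39 had 2 maxima, 6 had 3 or more and the other 113 had at most 1, whereas 1 of the narrow peaks had more than 1. The summit fell on the centromeric side of the interval's middle in 76 and on the telomeric side in 82, so the broad peaks leaned to neither side. Broad peaks lay in groups of 5 or more in 48.1% of cases and narrow ones in 32.4%.

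Among the widest peaks, breadth came with different heights. After the peak of 5001 bp, the next were 3715 bp wide at 7583998 to 7587712 (height 779), 3232 bp at 25590884 to 25594115 (802), 3081 bp at 5908410 to 5911490 (545) and 2942 bp at 9849733 to 9852674 (214). The last was a low plateau: its lowest sample was 93.7 and its mean 152. The first of these 4 held 3 maxima with samples from 94.5 to 779. Over all 1008 peaks, height and width had a Spearman rho of 0.79, a description across peaks of 1 smoothed track in which a higher bump also spreads over more samples.

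**Figure D2:**
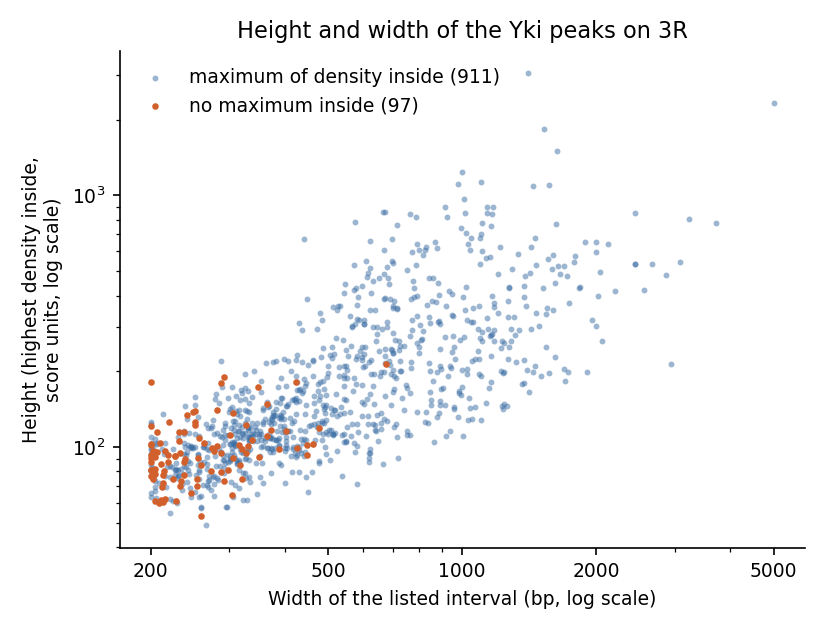
Each point is 1 Yki peak of 3R, with the width of its interval in bp and its height in score units, both on log axes; colour separates the 911 intervals that hold a local maximum of the density from the 97 that do not. The 97 are at most 675 bp wide and at most 214 high.

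Around the summits the median density of the smoothed track fell quickly and nearly alike on both sides. On the reading of the scale above, smoothing spreads even 1 tag over several samples. How much of this shape comes from smoothing was not tested. With the peaks split into 4 equal classes by height, the median profile of the highest class fell from 393 at the summit to under 50% of that value at 0.4 kb on both sides, to 43.6 at 1 kb and to 25.3 at 2 kb. The lowest class fell from 84.7 to under 50% at 0.6 kb on both sides and stood at 33.1 at 1 kb. At 5 kb the medians of the 4 classes, lowest first, were 15.7, 11.5, 10.6 and 12.8, and at 10 kb 9.34, 5.29, 5.74 and 6.43. Nearer the summit the classes differed more. In the same order they stood at 27.3, 14.1, 17.7 and 25.3 at 2 kb, and at 33.1, 26.8, 34.3 and 43.6 at 1 kb. The lowest class thus had the highest median at 2, 5 and 10 kb, and the highest class had it at 1 kb. Values from 1 kb outwards are medians averaged over both sides. The median widths of the classes were 269, 368.5, 547 and 923 bp.

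**Figure D3:**
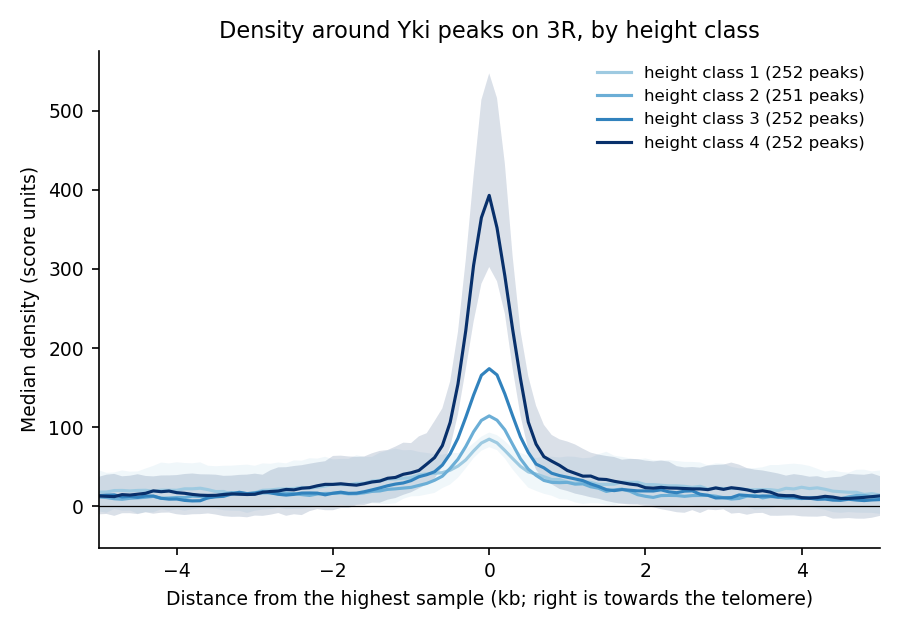
Lines give the median density against distance in kb from the highest sample of the peak, for 4 classes of 3R peaks by height (252, 251, 252 and 252 peaks), and shading the quartiles of the lowest and the highest class. The highest class has a median of 393 and the lowest of 84.7 at the centre. At 5 kb the medians, averaged over both sides, lie between 10.6 and 15.7.

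Most 3R peaks stood above their flanks. The median of the mean density inside peaks was 121, the median flank was 13.9, and the median difference was 110.2 (interval over peaks 105.1 to 115.4). The mean inside exceeded the flank in 950 peaks (94.2%, exact binomial interval 92.6% to 95.6%). List and track come from the same libraries, so this describes the list and supports nothing on its own. Flanks were below 0 for 30.1% of 3R peaks, against 19.96% on 2L, 22.8% on 3L and 28.3% on X. Centromeric and telomeric flanks had medians of 13.9 and 11.8.

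The 58 peaks that did not exceed their flanks were mostly low, with 35 in the lowest height class and 1 in the highest. The 5 with the largest deficit were chosen after their values were seen. They all lay between 25594242 and 25603232, within 5 kb of the peak that reached 2333, and had heights from 80.5 to 237. When samples inside other listed peaks were left out of the flanks, 99.3% of 3R peaks exceeded them.

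Deep troughs, where input outweighed ChIP, lay beside some peaks. The lowest sample of the arm, -633 at 25618041, was 1.32 kb beyond a peak of 337. The next lowest within 5 kb of a peak edge were -616 at 25521741, 4.51 kb from a peak of 673, and -498 at 25605541, 0.76 kb from a peak of 295. Values of -435 at 25553641 and -356 at 25574041 completed the 5 deepest. All 5 fell inside 100 kb of one another in the window from 25 to 26 Mb, which also held the second highest peak. Over the whole arm there were 699 troughs that reached -100, each an unbroken run of samples below 0, and the lowest sample of 31.9% of them was within 5 kb of a peak. Of the 17 such troughs that reached -300, 10 were within 5 kb. The stretches within 5 kb of a peak made up 23.2% of the arm.

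Peaks gathered in groups that differed widely in size. With peaks chained while the gap between them was under 10 kb, the 1008 peaks formed 441 groups: 223 single peaks, 174 groups of 2 to 4, 34 of 5 to 9 and 10 of 10 or more. Groups of 5 or more held 351 peaks (34.8%, exact binomial interval 31.9% to 37.9%), against 42.1% on 2L, 33.6% on 3L and 25.6% on X. The median height was 138 for single peaks and 135, 130.4 and 143 in groups of increasing size, with overlapping intervals over peaks (126 to 152, 124 to 146, 118 to 154 and 119 to 158). Peaks of 300 or more made up 19.7%, 18.2%, 19.7% and 20.3% of these classes. What rose with group size was the level beside the peaks: the median flank was -1.83 for single peaks and 11.7, 30.9 and 62.5 in the larger classes. The flanks of grouped peaks hold other listed peaks by construction, which raises this level.

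The largest group lay from 25562307 to 25616721 and packed 26 peaks into 54.4 kb, of which 42.8% was inside peaks. Its heights ran from 80.5 to 2333 with a median of 217, and 7 peaks reached 300. Its density averaged 177 and still fell to -498 within the group. This was the highest mean of the 5 largest groups, in the window with the third lowest background of the arm. The same window held the 5 deepest troughs near peaks given above. Among runs at or above the median peak height with no listed peak, the highest of the arm were there too (244, 214 and 194).

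Among the next groups, 2 had 22 peaks each and differed in spread. One ran from 10509965 to 10575669 over 65.7 kb, with a median gap of 1623 bp between intervals and a highest peak of 570. The other ran from 5904925 to 5942239 over 37.3 kb, with a median gap of 395 bp and a highest peak of 899. The mean density was 70.3 in the first and 124 in the second. A group of 17 at 17407323 to 17464714 was separated by 11.9 kb from the next one, of 11 peaks. The fifth, of 13 peaks at 16369577 to 16400671, held no high peak: none reached 300, the highest was 229, and a gap of 225.8 kb preceded it.

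Many close neighbours were not separate summits in the smoothed density. In 236 pairs the gap between intervals was at most 1 kb, and in 46 of them (19.5%, exact binomial interval 14.6% to 25.1%) the density between the summits fell under 50% of the lower height. The lowest density between them fell with the length of the gap. Its median was 100% of the lower height for the 34 pairs up to 100 bp apart and for the 37 pairs over 100 and up to 200 bp apart. It was 91.5% for the 71 pairs up to 500 bp apart, 60.9% for the 94 pairs up to 1000 bp and 22.7% for the 93 pairs up to 2000 bp, each counted from the end of the class before. A value of 100% means that the density did not dip at all between the highest samples of both intervals, as in 65 of the 236 pairs. A lower interval on the slope of a higher one also gives 100%, as its highest sample is at its edge. Smoothing over several samples leaves the closest pairs little room for a dip. How far smoothing sets the change with gap length was not tested.

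**Figure D4:**
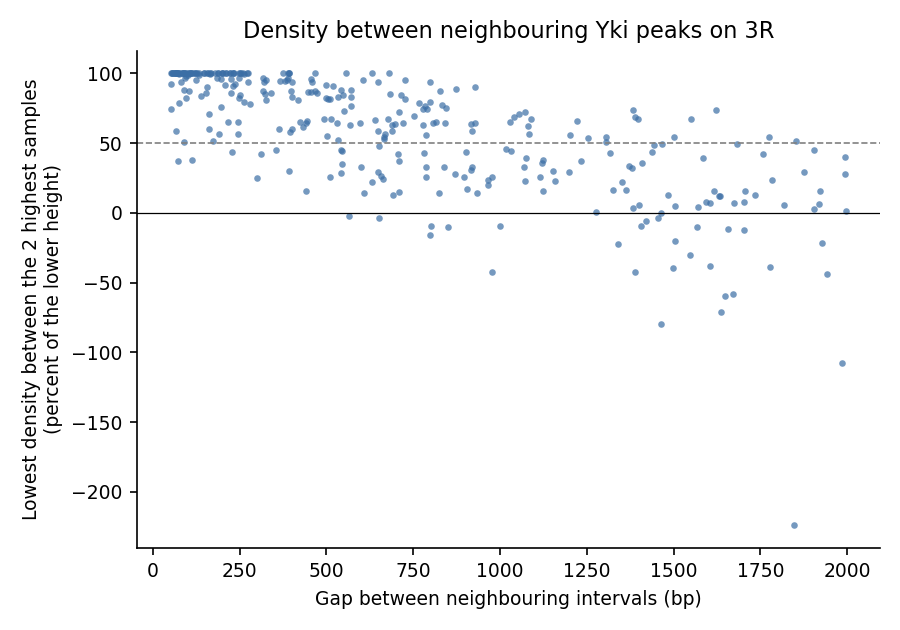
Each point is 1 pair of neighbouring Yki peaks on 3R up to 2000 bp apart, with the gap between intervals in bp and the lowest density between their highest samples as a percent of the lower height; the dashed line marks 50%. Most pairs up to 200 bp apart lie at 100%, and 73 of the 93 pairs over 1000 bp apart lie under 50%.

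Some listed intervals lay on a slope of the density. In 97 intervals (9.62%) the density had no local maximum, so the highest sample sat at an edge. The share was 12.0% on 2L, 8.84% on 3L and 8% on X. These intervals had a median width of 246 bp and a median height of 94.5, and none reached 300. A neighbour within 1 kb was present for 79 of the 97 (81.4%) and for 34.5% of the 911 intervals with a maximum, and the nearest neighbour was the higher peak in 84 of the 97. The group from 5904925 to 5942239 held 7 of them and the largest group held 6.

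Gaps were mostly short, and a few long ones took up much of the arm. The median gap between neighbouring intervals was 6.80 kb, with quartiles of 1.14 and 28.2 kb. Only 78 of the 1007 gaps reached 100 kb, and they added up to 13.4 Mb, or 48.1% of the arm. Of 279 windows of 100 kb, 53 held no peak (19.0%, exact binomial interval 14.6% to 24.1%), against 26.5% on 2L, 25% on 3L and 41.1% on X. The longest gap was 399 kb on 3R, 477 kb on 2L, 655 kb on 3L and 724 kb on X. The value of 3R was the lowest of the 4 arms compared for both, with no test of the difference. Arm 2R was not among them.

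**Figure D5:**
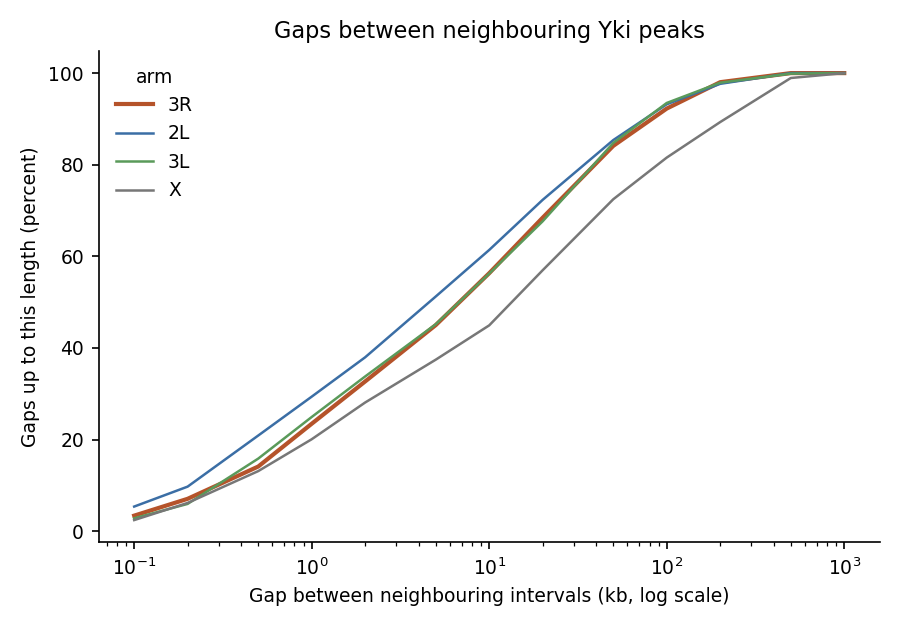
Lines give, for arms 3R, 2L, 3L and X, the percent of gaps between neighbouring intervals that are no longer than the length on the log axis in kb. At 10 kb the values are 56.3% on 3R, 61.4% on 2L, 56.2% on 3L and 44.9% on X.

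The 5 longest gaps lay in several parts of the arm. The longest, 399 kb, ran from 23751519 to 24150586, with a median density of -12.0 and 26.0% of samples above 0. The next ran from 1833878 to 2177707 (344 kb, median -7.21) and from 2286658 to 2617254 (331 kb, median -2.76), 2 neighbouring gaps towards the centromeric end. Gaps of 322 kb at 19173395 to 19495020 and of 318 kb at 17875267 to 18192965 had medians of -7.08 and -0.65. All 5 had medians below 0, as had the arm over 1 kb from any peak (-1.81). The gap of 318 kb was not below that level. Together with 2 more of the 10 longest gaps, the gap of 399 kb formed a stretch of 1.04 Mb, from 23107817 to 24150586. It held 3 peaks, all with heights between 319 and 356.

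Isolated peaks, with no other within 50 kb, numbered 28 (2.78%) and were not low as a class. Their median height was 145, against 136 over the arm, with a range from 48.9 to 963. Of the 28, 8 reached 300, against 193 of 1008 (19.1%) over the arm. These 8 include the 3 peaks of the 1.04 Mb stretch given above. The highest isolated peak was that at 7712629 to 7713640, already given as the tenth of the arm. The next, at 13769347 to 13769967, reached 658 with flanks of -2.84 and 5.24. The third, at 14409180 to 14411853, reached 536 and spanned 2674 bp, which makes it a broad peak with 72.6 kb to its nearest neighbour. At the ends of the arm, the first peak lay at 22795 to 23127 with a height of 107, and the last lay at 27893700 to 27894097 with a height of 121 and 4.54 kb before the last sample.

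The lowest listed peaks overlapped in height with density that was not listed. The lowest 3 reached 48.9 at 17769711 to 17769976, 53.4 at 17487449 to 17487708 and 54.5 at 9880587 to 9880807, with counting SDs of at least 5.88, 6.15 and 6.21. The first was isolated, and the other 2 had neighbours within 557 and 698 bp. Unbroken runs of samples at 50 or more numbered 1774 on 3R, and 793 of them (44.7%) held a listed peak. The share was 72.2% at 75, 90.1% at 100, 98.6% at 150 and 100% (200 of 200) at 300. Runs of samples that all lay at least as far below 0 numbered 3039 at 50, 844 at 100 and 20 at 300. A trough, as counted above, can hold several such runs. On the reading of the scale above, 1 input tag sums to -1.80 and 1 ChIP tag to 4.98. Equal depth and height thus stand for unlike numbers of tags, and the counts on both sides of 0 are not matched. At the median peak height, 11 runs of density held no listed peak. The highest of these, at 25628641 to 25628941, reached 244 at 11.9 kb from the nearest listed peak.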

How the data were processed

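Per the labels' protocols, fixed S2 chromatin was used for ChIP with anti-Yki (2 libraries) or kept as input (1 library), tagmented with Nextera reagents and read on a HiSeq2000. Groups follow the titles. The description fields name other material (GAF or Yki embryo ChIP) for the same samples and were not followed. CASAVA 1.7.0, BWA, Bowtie and dm3 stand in the submitters' processing notes without roles, and the sources used here do not give the peak caller.

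The deposited files are a list of the authors' intervals (positions only, no height or p-value) and a density score each 100 bp. Per the file headers, the score is smoothed and background-subtracted. The header joins 2 library codes and 1 input code that match no label; they were taken as the libraries of the series, pooled.

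Starts were raised by 1 to be 1-based. Track samples were assigned to a peak by their centres. Flanks ran from 2 to 5 kb from the edges, and groups were chained at gaps under 10 kb. Local maxima were samples above the preceding and no lower than the following sample. Samples within 0.001 of 0 counted as 0 in shares above or below 0. In the whole track, short bumps of at most 17 samples between samples at 0 had a most frequent sum of 4.98 above 0 (1156 of 3487 within 2%) and -1.80 below 0 (894 of 1564); the first was read as 1 ChIP tag of centre height 1, the second as 1 input tag. Counting SDs are the lower bound that this reading gives. Intervals are 95%: exact Poisson for rates, exact Clopper-Pearson for shares, and order statistics for medians over peaks; they treat grouped peaks as independent. Heights, flanks, the pairing of close intervals and the dip between bumps were checked on simulated bumps without noise on a flat level. The other measures were not checked in this way. Python 3.11.15, numpy 2.4.6, pandas 2.3.3 and scipy 1.17.1 were used. No test was run, since no file gives a value per library.

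The members, measures and the rule for named regions (the 10 highest and 5 widest peaks, the 5 largest groups and longest gaps, the windows with most and fewest peaks, the 3 lowest peaks, the 5 deepest troughs within 5 kb of a peak and the 3 highest isolated peaks) were chosen with earlier results of these data known. Peaks without a local maximum, the runs of unlisted density, the stretch of 3 long gaps and the peaks below their flanks were added after the values were seen.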

Additional observations from a re-analysis of the deposited data

How the results depend on the processing

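Of 45 alternatives over 11 results, 9 gave values within the interval of the reported one (or within 1.5 times for peaks per Mb) and 36 did not. The share of density above 0 inside peaks has no interval. Its alternatives count among the 36 because none equalled the reported value. The share of peaks on the telomeric side of the middle stayed within its interval, at 46.3% to 50.2%. Joining intervals up to 500 bp apart left 866 peaks and gave 32.9% of neighbours under 5 kb apart, 23.7% of peaks in groups of 5 or more, a width of 520.5 bp (median), a peak minus flank of 116, 96.7% of peaks above their flanks and 33.3% of the density above 0 inside peaks. Keeping only peaks no lower than the median height, which fixes their number at 504, gave 18.1 peaks per Mb, 27.2% of neighbours under 5 kb apart, 15.9% in groups, 29.7% of windows with no peak, a width of 719.5 bp, a peak minus flank of 186, 98.0% above their flanks, 28.4% of the density inside peaks and 47.8% of close pairs under 50% of the lower height. Limits set by construction gave 55.6% of neighbours within 10 kb and 26.2% within 2 kb, 18.9% in groups at a gap of 5 kb and 51.7% at 20 kb, 39.8% of empty windows at 50 kb and 5.76% at 200 kb, and 5.63% of pairs under 50% for gaps up to 500 bp and 36.2% for gaps up to 2 kb. With the mean of the samples in place of the highest, the median height was 121. Peak minus flank was 117 and 96.5% of peaks exceeded their flanks with flanks 5 to 10 kb away, 119 and 99.3% without samples inside other listed peaks, and 125 with the highest sample. Widening intervals by 500 bp put 44.9% of the density inside. Leaving out intervals with no local maximum, an alternative chosen after seeing the data, gave 38.0% of neighbours under 5 kb apart, 28.8% in groups, a median width of 495 bp, a median height of 146, 95.7% above their flanks and 28.9% of close pairs under 50%. Where the construction does not fix the change, the cause was not tested. No paired analysis was possible because neither file has a column for a single library, and for the same reason no library could be left out.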
